A study of Homo sapiens with 9 samples.

Results

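The comparison described here sets the transcriptome of human spinal cord organoids (SCOs) exposed to valproic acid (VPA) against that of SCOs given vehicle. It uses 6 of the 9 libraries of the series, the 3 labelled VPA and the 3 labelled vehicle, chosen by treatment alone, and 17360 of the 30034 genes in their count table, those that passed a filter on low counts. The SCOs were made from the WTC line, an induced pluripotent stem cell line that the labels give as wild type (WT). According to the study the cells were clones of that line edited to carry a reporter driven by SOX10, some of them with a small insertion or deletion on the other SOX10 allele. SCOs that showed the reporter were isolated for its exposure experiments, and whether the sequenced pools were selected in this way is not given in the sources used here. Vehicle SCOs received the growth factor FGF alone, and VPA SCOs received FGF and VPA. Exposure lasted 96 hours according to the labels, while the study's text gives another length. RNA of several SCOs of a clone was pooled for a library, and no label says which clone a replicate number stands for, so the tests measure the spread between such pools, which may be in part technical.

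VPA is an anti-seizure drug that inhibits class I histone deacetylases, enzymes that remove acetyl groups from histone tails, and exposure to it in pregnancy is a known cause of neural tube defects. In the developing spinal cord, progenitors in the ventricular zone are arranged in domains along the dorsoventral axis, each with its own set of transcription factors, and give rise to classes of interneurons and to motor neurons. HOX genes give these cells their position along the body axis, and cells that leave the dorsal neural tube form the neural crest, the source of peripheral neurons, glia, pigment cells and part of the skeletal and connective tissue of the head.

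Depth was even, at 15290294 to 17417338 counts a library, and 3 counts, taken as the floor of detection, correspond to 0.172 to 0.196 CPM (counts per 1000000 counts of the library) over the 6 libraries. Levels are given below as CPM after scaling by the trimmed mean of M-values. The first principal component held 60.8% of the variance and separated the groups, from -58.1 to -45.3 in vehicle and from 51.7 to 53.9 in VPA. Vehicle libraries differed more among themselves than VPA libraries did, with a biological coefficient of variation of 20.6% against 9.3%. The second component (16.1%) spread the vehicle libraries, with replicate 1 at 41.5, replicate 2 at 13.7 and replicate 3 at -50.1. Vehicle replicate 3 had the more of ZIC1, a roof plate factor, with 38.4 CPM against 0.588 and 1.44 CPM in the other vehicle libraries. Vehicle replicate 1 had the more of CDX2, a factor of the early caudal embryo, with 13.2 CPM against 2.23 and 2.17 CPM. Leaving out a library moved many counts of list members by over 1.5 times, and most often those of 3 members or fewer. Such moves are given below for the counts that the description of a list rests on. Reads were not stated to be assigned by strand, and a gene named below may share reads with a well counted neighbour that overlaps it: LHX5 with LHX5-AS1, PAX8 with PAX8-AS1, LHX4 with ACBD6, CLDN6 with TNFRSF12A, THBS1 with FSIP1, LAMB1 with DLD, TAP1 with PSMB9, IFIT1 with LIPA, TGFB1 with HNRNPUL1, FEN1 with FADS2, HAT1 with SLC25A12 and HDAC7 with SLC48A1.

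Many genes of these SCOs differed between the groups. At an adjusted p of at most 0.05 in edgeR's quasi-likelihood test, 2840 genes were higher in VPA SCOs (raised, 16.4% of the 17360 tested) and 2728 were lower (lowered, 15.7%), and 32.1% were called in either direction. Changes of at least 2-fold were more often upward, with 1180 genes (6.8%) against 786 (4.53%). The 3 libraries of one group did not overlap those of the other in 47.5% of genes tested. Counts of list members below are to be set against 16.4% raised and 15.7% lowered. Raised genes were on the whole weakly expressed in vehicle SCOs, with a median of 12 CPM and a median change of 1.79-fold. Lowered genes had a median vehicle level of 46.0 CPM and a median change of 1.61-fold. Among protein-coding genes split into 5 groups of equal size by their mean level, 22.8% of the lowest group were raised and 7.97% lowered, while 12.5% of the highest group were raised and 24.9% lowered. Annotated transcript length, which includes exons of all isoforms, showed a like order, from 23.9% raised and 8.08% lowered in the shortest group to 14.7% and 25.7% in the longest. Counting has more power for abundant and long genes, and the part of level and length in these shares was not tested further.

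**Figure D1:**
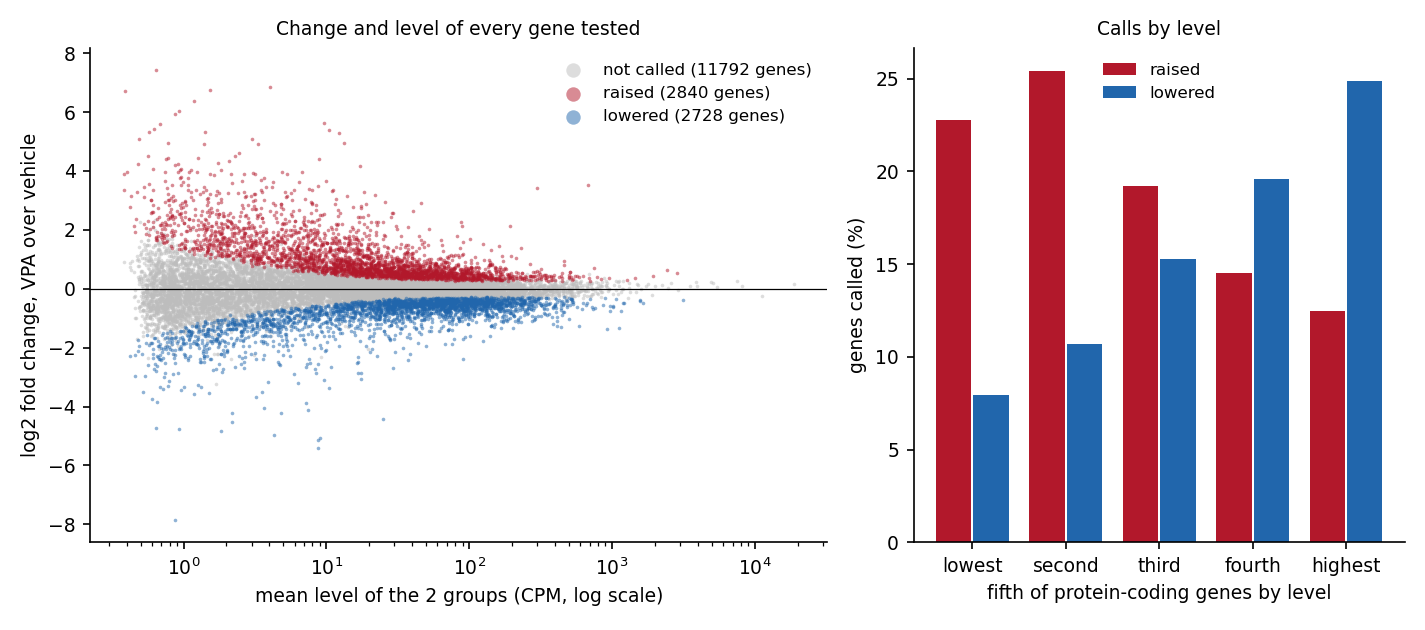
Left, log2 fold change of VPA over vehicle against the mean level of both groups in CPM (log scale) for the 17360 genes tested, with raised genes in red, lowered genes in blue and genes not called in grey. Right, percent of protein-coding genes called in each of 5 groups of equal size by level: raised genes fall from 22.8% to 12.5% and lowered genes go from 7.97% to 24.9%.

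The genes whose rise was largest beside its error included genes of neurons and of the immediate early response. SCN1A, which encodes a pore-forming subunit of voltage-gated sodium channels and lies on chromosome 2 at 165984641 to 166149214 (GRCh38, minus strand), had 1.76, 2.16 and 1.49 CPM in the vehicle libraries and 33.9, 30.3 and 33.4 CPM in the VPA libraries. NRGN, a calmodulin-binding protein of the postsynaptic side, had 9.93, 10.3 and 12.6 CPM in vehicle and 84.5, 84.5 and 75.5 CPM in VPA. PRKCB, a protein kinase C isoform, had 10.6, 9.84 and 13.3 CPM against 69.0, 69.5 and 71.4 CPM. For these 3 genes the lowest VPA library stood far above the highest vehicle library. They were chosen among the genes whose groups did not overlap (47.5% of genes tested), so the separation adds no support. The log2 fold changes were 4.17 ± 0.19 (SE) for SCN1A, 2.90 ± 0.14 for NRGN and 2.64 ± 0.14 for PRKCB, with adjusted p of 8.11e-07, 8.11e-07 and 1.7e-06 in edgeR's quasi-likelihood test. CLIC6, a chloride intracellular channel protein, rose 9.04-fold, and DISC1, a scaffold protein of neurons, rose 5.98-fold. SPAG6, a protein of the central apparatus of motile cilia, rose 7.73-fold. SLC7A10 (0.466 to 20.3 CPM), an amino acid transporter, and BMP8B (1.94 to 20.2 CPM) also rose, and each overlaps a well expressed gene, LRP3 and PPIE respectively, so that part of its reads may belong to the neighbour.

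Several genes went from next to nothing to a clear level. PMP2, a lipid-binding protein of myelin, had 0, 0 and 0.186 CPM in vehicle SCOs and 8.46, 7.2 and 8.46 CPM in VPA SCOs (adjusted p = 1.93e-05 in edgeR's test). ITIH5, a hyaluronan-binding protein of the extracellular matrix, had at most 0.646 CPM in vehicle and at least 15.4 CPM in VPA. SLFN11, an interferon-inducible protein that acts on stalled replication forks, had at most 0.311 CPM in vehicle and 6.09, 6.28 and 5.13 CPM in VPA, and LARGE2, a glycosyltransferase of dystroglycan, had at most 0.0656 and at least 2.75 CPM. GALNT6 and DMBX1 were at 0 counts in the 3 vehicle libraries and reached 1.29 ± 0.444 and 0.782 ± 0.096 CPM (SD, n = 3) in VPA, while CFC1, a co-receptor of Nodal, went the other way, from 1.73 ± 0.989 CPM to 0 counts in the 3 VPA libraries. In all, 39 raised genes were at or under 3 counts in each vehicle library, and 10 lowered genes were so in each VPA library.

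The steepest falls included genes of spinal interneurons and their transmitters. SLC17A6, the vesicular transporter that loads glutamate in most excitatory neurons of the spinal cord (chromosome 11, 22338097 to 22379503, plus strand), had 10.2, 13.0 and 29.1 CPM in vehicle and 0.591, 0.427 and 0.507 CPM in VPA, a fall of 33.8-fold with an adjusted p of 3.03e-05. SLC6A5, the glycine transporter of inhibitory neurons (chromosome 11, 20599400 to 20659285, plus strand), had 26.0, 29.2 and 33.4 CPM in vehicle and 3.84, 3.54 and 4.68 CPM in VPA. For both transporter genes the highest VPA library lay below the lowest vehicle library. SLC6A5 was chosen among the genes whose groups did not overlap (47.5% of genes tested), so for it the separation adds no support. TAL1, a bHLH factor of inhibitory interneurons of the ventral cord, had 31.7, 33.4 and 27.9 CPM against 4.49, 3.11 and 5.07 CPM. SLC6A5 and TAL1 each had a log2 fold change of -2.87, with adjusted p of 4.17e-06 and 7.41e-06. INSM1, a zinc finger factor of newborn neurons, fell 3.27-fold from 139 CPM, NEUROD1, a bHLH factor of differentiating neurons that overlaps CERKL, fell 5.4-fold, and SHD, an adaptor protein, fell 10.2-fold. Outside this group, FGFBP3, a secreted carrier of FGF, fell from 1610 ± 180 to 638 ± 23.1 CPM, and DDX39B, an RNA helicase of mRNA export, from 238 ± 10.2 to 94.9 ± 6.82 CPM. KLHL1 (8.33 to 0.258 CPM), CRH, the corticotropin-releasing hormone (17.1 to 0.388 CPM), and ISL1, a LIM homeobox factor of motor and sensory neurons (3.54 to 0.119 CPM), were among the largest falls by fold. For CRH and ISL1 vehicle replicate 3 held most of the vehicle level, with 38.2 and 8.51 CPM.

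Several transcription factor genes of the immediate early class, which cells switch on within minutes of growth factor, calcium or stress signals, were among the raised genes. They are described one by one, and no list of the class was counted. EGR1 had 121, 122 and 81.0 CPM in vehicle and 1200, 1090 and 1440 CPM in VPA, and FOS had 55.9, 49.5 and 46.0 CPM against 491, 457 and 683 CPM. The log2 fold changes were 3.53 ± 0.17 (SE) for EGR1 and 3.43 ± 0.16 for FOS, with adjusted p of 8.11e-07 and 8.11e-07 in edgeR's test. EGR2 (0.823 to 25.9 CPM) and EGR3 (0.61 to 23.9 CPM) started from low levels. FOSB rose 12.7-fold and JUNB 5.4-fold, with neighbours that overlap both (ERCC1 and HOOK2), and JUN rose 1.97-fold, while FOSL2 had 3.26 CPM in vehicle and 3.5 CPM in VPA. Windows of 4 of their promoters are shown, chosen because these genes rose and their promoters hold a short element named next. Holding the element therefore adds no support, and promoters of the other genes named here are not shown. The sequences are RefSeq's for GRCh38.p14, and capitals mark the element: a CArG box, the site that serum response factor binds, in EGR1, and a TATA box (TATAAA) in the others.
EGR1 (chromosome 5, 138465364 to 138465393, plus strand): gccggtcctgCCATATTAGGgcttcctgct
EGR1 (chromosome 5, 138465386 to 138465415, plus strand): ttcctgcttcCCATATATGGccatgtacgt
FOS (chromosome 14, 75278783 to 75278812, plus strand): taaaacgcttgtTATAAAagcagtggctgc
FOSB (chromosome 19, 45467954 to 45467983, plus strand): gggtcccgggcaTATAAAtacaggctggcg
JUNB (chromosome 19, 12791443 to 12791472, plus strand): tgactagcgcggTATAAAggcgtgtggctc
Searched on both strands of the 250 bases before and 50 after the start, a CArG box was found in 1.14% and TATAAA in 5.71% of the 11504 promoters that could be matched to protein-coding genes tested. A match of letters is a description of the window and does not show that a factor binds there. Fewer than 80% of raised genes (79.3%) had a matched promoter, so a comparison of elements or base composition between raised and other promoters is void and is not given.

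Transcription factors of ventral interneurons and their progenitors had the highest share of lowered members of the lists examined. Of 16 markers tested out of 18 listed, 13 were lowered (81.2%, against 15.7% over the genes tested) and 2 raised, and the median log2 fold change was -1.63, against a median of 0.00 over the genes tested. Leaving out any single library left 12 or 13 lowered. SOX14, a factor of the GATA-positive V2b class, had 17.2, 15.3 and 12.2 CPM in vehicle and 1.83, 2.38 and 1.97 CPM in VPA. GATA2, a zinc finger factor of the same class, had 33.1, 28.4 and 22.2 CPM against 5.03, 3.84 and 7.89 CPM. EVX1, a factor of the commissural V0 class, had 27.9, 25.4 and 30.9 CPM against 2.9, 3.17 and 8.51 CPM. The groups did not overlap for these 3 genes, as for 47.5% of genes tested, and SOX14 was chosen under a rule that asked for it. Their log2 fold changes were -2.85 ± 0.22, -2.32 ± 0.25 and -2.52 ± 0.33 with adjusted p of 1.56e-05, 0.000101 and 0.000319 in edgeR's test. EN1, the factor of V1 inhibitory neurons, fell 5.92-fold, GATA3 1.7-fold, BHLHE22 5.63-fold, and the LIM homeobox genes LHX5 and LHX1 fell 2.93-fold and 2.6-fold. FOXN4, which acts in V2 progenitors before they leave the cell cycle, fell 3.26-fold. The 2 members that rose were DBX1 and DBX2, homeobox genes of the dividing progenitors next to the border between ventral and dorsal cord: DBX1 had 266, 210 and 195 CPM in vehicle and 305, 307 and 388 CPM in VPA, and DBX2 rose 2.29-fold. SIM1, a factor of V3 neurons, had 1.04 CPM in vehicle and 1.26 CPM in VPA. In bulk libraries, fewer cells of a type and less RNA per cell cannot be told apart.

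Dorsal markers were less uniform. Of 13 tested out of 21 listed, 7 were lowered and 1 raised, with a median log2 fold change of -0.89 (7 lowered and 3 raised without vehicle replicate 3). PAX2, a factor of inhibitory interneurons, had 27.5, 30.4 and 38.0 CPM in vehicle and 11.2, 7.69 and 14.8 CPM in VPA, and PAX8 fell 4.05-fold. The proneural genes NEUROG1 (48.1 to 26.1 CPM) and NEUROG2 (8.32 to 4.96 CPM) fell too. OLIG3, a factor of the most dorsal progenitors, went from 2.06, 3.41 and 14.2 CPM to 0.414, 0.793 and 0.507 CPM. For LMX1B and POU4F1 vehicle replicate 3 was higher than the other vehicle libraries and neither gene was called. LHX2, at 0.19 CPM in vehicle, rose to 1.4 CPM.

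**Figure D2:**
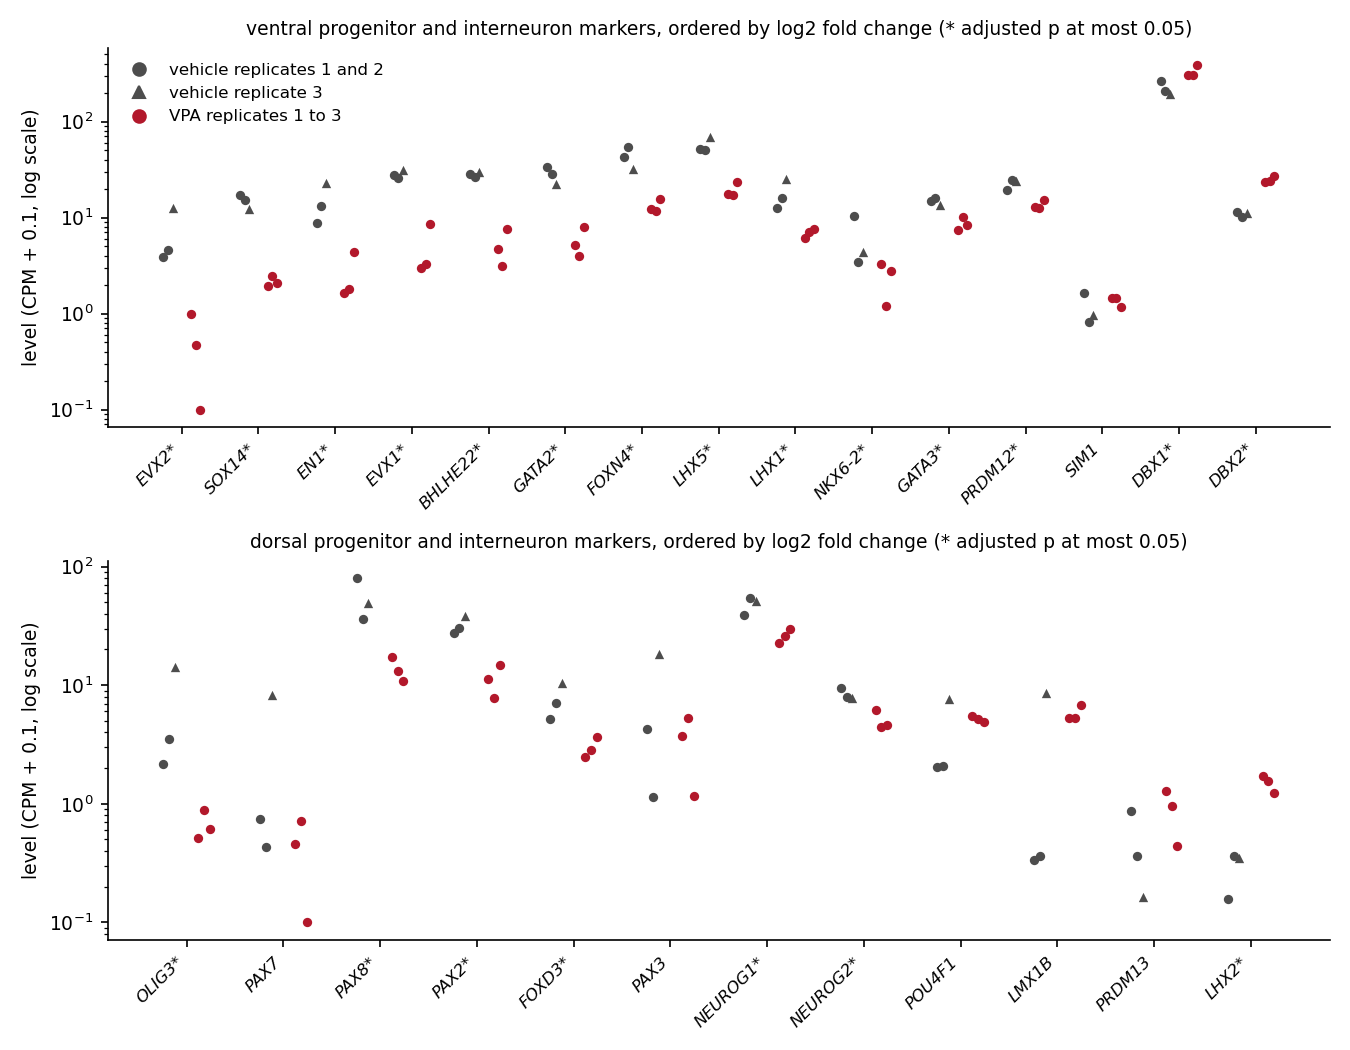
Level in each library (CPM + 0.1, log scale, so that 0 is drawn at 0.1) of 15 of the 16 ventral (top) and 12 of the 13 dorsal (bottom) markers tested, ordered by log2 fold change, with vehicle in grey, vehicle replicate 3 as triangles and VPA in red. Of the 15 ventral markers drawn 12 lie lower in VPA, from EVX2 to PRDM12, and DBX1 and DBX2 lie higher, while vehicle replicate 3 exceeds the other vehicle libraries for OLIG3, PAX7, PAX3 and LMX1B.

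General progenitor and neuronal markers framed these changes. Of 13 markers of neural progenitors, 2 rose and 2 fell (15.4% each, close to the shares over the genes tested). SOX2 had 285, 264 and 264 CPM in vehicle and 265, 286 and 274 CPM in VPA, and NES 779 and 790 CPM on average. HES5, a Notch effector that keeps progenitors undifferentiated, rose from 312, 315 and 320 CPM to 589, 549 and 692 CPM, and IRX3 rose 1.77-fold, while NKX6-1, a ventral progenitor factor, fell 2.27-fold and VIM 1.32-fold. Of 14 pan-neuronal markers, 8 fell and 1, MAPT, rose. The bHLH genes of newborn neurons NHLH1 and NHLH2 fell 2.62-fold and 3.05-fold, ELAVL4, an RNA-binding protein of neurons, fell 2.29-fold, and DCX, a microtubule protein of migrating neurons, fell from 218, 323 and 393 CPM to 178, 190 and 187 CPM. SNAP25, part of the release machinery, had 53.3 CPM in vehicle and 56.8 CPM in VPA. Motor neuron genes moved in both directions: LHX3 fell 2.03-fold and LHX4 1.91-fold, while SLC18A3, the vesicular acetylcholine transporter, rose from 8.35, 10.8 and 16.2 CPM to 22.6, 26.6 and 28.5 CPM, its gene lying within CHAT. MNX1 rose 2.36-fold from 1.75 CPM.

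Genes for electrical and synaptic signalling did not follow the neuronal markers as a block. Among 30 voltage-gated channel genes 8 rose (26.7%, against 16.4% over the genes tested) and 4 fell (13.3%, against 15.7%). The median log2 fold change was 0.37. Besides SCN1A, the sodium channel gene SCN9A rose from 1.47, 2.23 and 1.86 CPM to 13.5, 16.4 and 12.1 CPM, the calcium channel gene CACNA1G rose 5.66-fold, and the potassium channel gene KCNQ3 went from 3.91 to 9.74 CPM. CACNA1E fell 2.49-fold. Of 27 transmitter receptor genes tested, 9 rose (33.3%) and 8 fell (29.6%). The receptors that rose included GRIN2B, an NMDA receptor subunit, with 2.41, 2.82 and 2.98 CPM in vehicle and 20.2, 19.7 and 21.2 CPM in VPA, and GABRB2, a GABA-A receptor subunit, with 1.06, 1.05 and 1.12 CPM against 11.1, 9.95 and 9.58 CPM. GABRA3 rose 3.06-fold and GRIK3, a kainate receptor subunit, 2.24-fold. Those that fell included GRIA2, an AMPA receptor subunit (42.8 to 12.8 CPM), GLRA2, a glycine receptor subunit (8.55 to 3.43 CPM), and GRIN2D (28.7 to 16.7 CPM). Of 30 genes of synaptic vesicles and release, 5 rose (16.7%, close to the 16.4% over the genes tested), led by SYT13 (4.86-fold). In the same list 8 fell (26.7%), among them CPLX2 and DNM1 by 1.76-fold or less (4 lowered without VPA replicate 1, and 5 without VPA replicate 2 or vehicle replicate 2). SYT1 had 184 CPM in vehicle and 168 CPM in VPA and was not called. In the cytoskeleton of neurons 6 of 25 genes rose, with NEFH, the heavy neurofilament subunit, at 2.97-fold, and 8 fell, with STMN4 at 3.21-fold and the abundant tubulin gene TUBA1A at 1.31-fold (13 lowered without vehicle replicate 1, 5 without vehicle replicate 2, and 3 and 4 without VPA replicates 1 and 3). Of 34 axon guidance genes 5 rose (14.7%) and 4 fell (11.8%), both below the shares over the genes tested, and 25 were not called. Without 1 library 3 to 7 were raised and 2 to 8 lowered. Of these genes ROBO3, which lets commissural axons cross the midline, fell from 188, 191 and 257 CPM to 69.3, 58.5 and 78.8 CPM. SEMA3E, a repulsive guidance cue, rose 4.59-fold.

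Markers of other tissues were used to check the labelled cell type. Of 10 markers of blood and macrophages none had enough counts to be tested, of 11 for endoderm 2 did and of 9 for heart 1. Of 11 neural crest markers tested, 5 were lowered (2 without VPA replicate 3, and 3 without vehicle replicate 3, VPA replicate 1 or VPA replicate 2) and 1, ETS1, rose, and the lowered ones included SOX10, the gene of the reporter, which overlaps POLR2F and went from 17.0 ± 3.11 to 0.471 ± 0.16 CPM. Of 15 mesenchymal stromal markers 4 rose (9 without vehicle replicate 3): THY1, COL1A1, COL1A2 and PRRX2. Summed over the list, their level was 184 to 361 CPM in vehicle libraries and 648 to 801 CPM in VPA libraries, and COL1A1 and COL1A2 held most of it: on average COL1A1 had 124 CPM in vehicle and 268 CPM in VPA, and COL1A2 72.7 and 316 CPM. Of the 15 members tested 11 were not called. PDGFRB had 17.5 and 17.7 CPM on average. The bone and cartilage genes ALPL, ACAN, MATN3 and RUNX2 rose out of 9 tested, ALPL from 14.2 to 60.4 CPM, while SOX9, a factor of cartilage and of neural progenitors, fell from 113 to 84.7 CPM. Of 3 melanocyte markers tested out of 6 listed 2 rose (1 or 2 when 1 library was left out). PMEL, a melanosome protein that overlaps CDK2, went from 86.5 to 237 CPM. Of 10 astrocyte markers tested 2 rose, 1 fell and 7 were not called (1 to 4 raised when 1 library was left out). CLU, a chaperone of astrocytes among other cells, rose 2.08-fold. Of 6 epithelial markers tested 4 were not called (2 to 5 raised when 1 library was left out). CLDN6 and KRT19 rose from 0.952 and 0.677 CPM to 11.9 and 7.72 CPM. MYOD1, the master factor of muscle, was at 0 or 1 count in vehicle libraries and had 1.54, 1.04 and 0.789 CPM in VPA. What part of any change comes from a different mix of cells was not tested.

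HOX genes were called lower far more often than higher. Of 38 listed genes 32 were tested, 14 were lowered and 2 raised, the median log2 fold change was -0.90, and 28 of the 32 had a log2 fold change below 0. Without vehicle replicate 3, in which several posterior HOX genes were lower than in the other vehicle libraries, 25 were lowered. HOXC8 had 26.7, 35.3 and 18.7 CPM in vehicle and 6.33, 9.46 and 7.55 CPM in VPA, and HOXB8 had 162, 154 and 111 CPM against 62.0, 70.9 and 72.8 CPM. HOXB2, an anterior gene, fell 1.81-fold with less spread, from 144, 122 and 127 CPM to 74.7, 74.1 and 68.1 CPM. The falls of HOXC6 (2.91-fold) and HOXB8 (2.08-fold) exceeded the spread of their libraries, though neighbouring HOX genes overlap in the annotation and reads may be shared. HOXB1 and HOXD8 rose 1.63-fold and 1.75-fold, though neither passed without VPA replicate 2, nor HOXB1 without VPA replicate 3 or vehicle replicate 2, and HOXB4, at 23.6 CPM in vehicle and 24.9 CPM in VPA, was not called. The most posterior genes tested, such as HOXD11 (2.69 to 0.572 CPM) and HOXA10 (10.4 to 4.2 CPM), varied too much among vehicle libraries to pass the test.

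**Figure D3:**
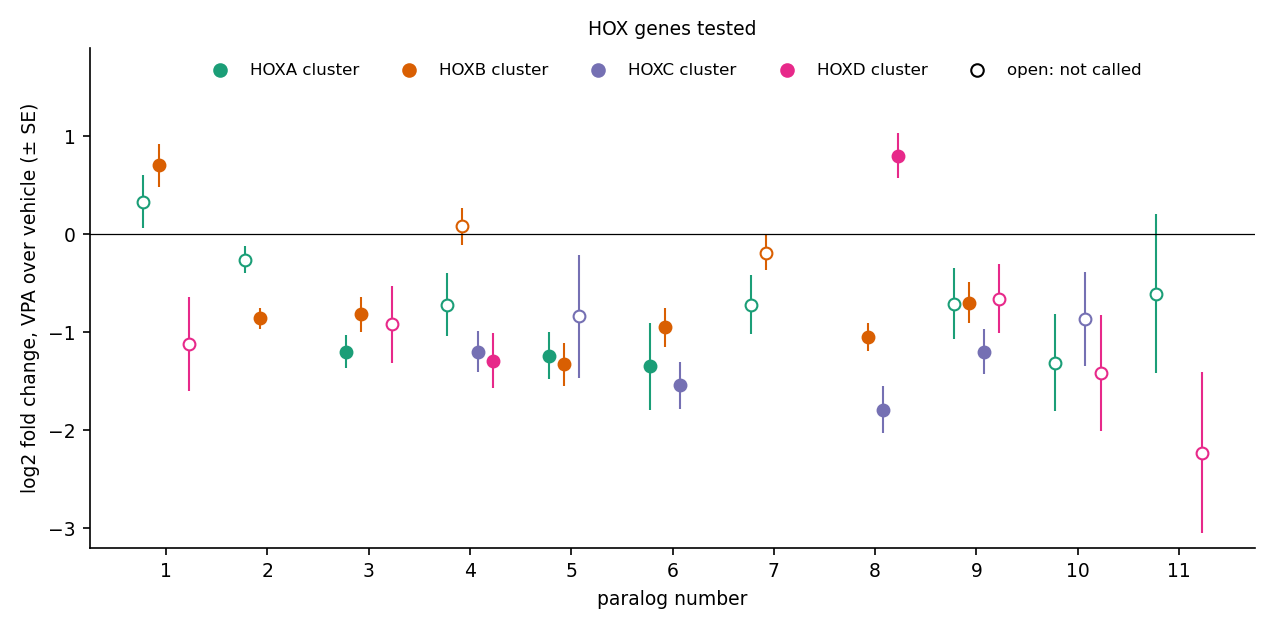
Log2 fold change of VPA over vehicle (± SE) of the 32 HOX genes tested by paralog number, from the anterior (1) to the posterior end of the clusters, coloured by cluster, with open circles for genes not called. The 14 lowered genes run from HOXB2 at the anterior side to HOXB9 and HOXC9, and the 2 raised genes, HOXB1 and HOXD8, lie above 0.

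Extracellular matrix genes that were called were with 1 exception raised, while most were not called. Among 28 collagen genes tested 11 were raised (39.3%, against 16.4% over the genes tested), none was lowered and 17 were not called, and the median log2 fold change was 0.38 (7 raised without VPA replicate 1, and 8 without VPA replicate 2 or 3 or vehicle replicate 2, with a summed level of 1970 to 2650 CPM in vehicle and 3170 to 3320 CPM in VPA). COL1A2, a chain of type I collagen, had 85.6, 28.6 and 104 CPM in vehicle and 361, 292 and 297 CPM in VPA, and COL6A2 had 161, 115 and 108 CPM against 329, 321 and 344 CPM. COL9A2 rose 3.8-fold, and COL12A1 went from 0.786 to 16.9 CPM. COL2A1, the main collagen of cartilage, and COL4A2, of basement membranes, were not called. Of 33 matrix glycoproteins and proteoglycans 13 rose (39.4%), 1 fell and 19 were not called (7 raised without VPA replicate 1): THBS1, a matricellular protein that activates latent TGF-beta, had 10.9, 12.9 and 12.9 CPM in vehicle and 54.5, 42.3 and 53.9 CPM in VPA, the laminin gene LAMB1 rose 2.67-fold, and SPARCL1 fell 3.86-fold. CAV1, the scaffold of caveolae, rose 9.74-fold, from 1.35, 3.54 and 5.47 CPM to 27.7, 34.0 and 38.8 CPM.

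RNA of many genes of antigen presentation through MHC class I stood higher in VPA SCOs. Of 17 genes tested 11 were raised (64.7%, against 16.4% over the genes tested), with 8 to 11 raised when 1 library was left out. The median log2 fold change was 0.78. The 2 lowered genes were TAPBP (log2 fold change -0.55) and ERAP1 (-0.32). HLA-B had 26.4, 17.9 and 18.0 CPM in vehicle and 86.5, 77.6 and 90.4 CPM in VPA, and HLA-C had 23.6, 20.5 and 23.0 CPM against 72.1, 65.8 and 71.5 CPM. HLA-E rose 2.29-fold, the peptide transporter gene TAP1 3.48-fold and B2M, the invariant light chain, 1.45-fold. HLA genes resemble each other in sequence and HLA-B overlaps HLA-C in the annotation, so the share of each in these reads is uncertain. Interferon-stimulated genes, which often rise with class I genes, moved less: 6 of 25 rose and 2 fell, and the median log2 fold change was -0.05 (2 raised without VPA replicate 3 and 5 lowered without vehicle replicate 3). BST2 rose 4.31-fold and IFIT1 1.53-fold, while IRF7 fell from 11.6 to 5.99 CPM and ISG15 had 18.9 and 23.7 CPM.

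Among signalling pathways, a list of FGF ligands, FGF receptors and feedback genes of ERK signalling had more lowered than raised members. Of 27 genes of that list 13 fell (48.1%, against 15.7% over the genes tested), 2 rose and 12 were not called. The median log2 fold change was -0.51 (8 lowered without VPA replicate 3). SPRY1, a feedback inhibitor of receptor tyrosine kinases, had 148, 132 and 146 CPM in vehicle and 46.8, 57.7 and 33.4 CPM in VPA. SPRY2 fell 1.75-fold, PHLDA1 1.96-fold, the ERK phosphatase gene DUSP6 1.44-fold and the receptor gene FGFR3 1.47-fold. DUSP5, another ERK phosphatase gene, rose from 2.17 to 11.8 CPM and FGFR4 rose 2.63-fold. EGR1 and FOS, which ERK signalling also induces, rose as given above. In the Notch pathway the ligand gene DLL4 had 21.7, 21.8 and 12.5 CPM in vehicle and 2.72, 3.48 and 2.76 CPM in VPA, NOTCH1 fell from 536 to 388 CPM, and the target genes HES5 and HEYL rose 1.93-fold and 3.22-fold, out of 5 lowered and 2 raised among 26 (9 lowered without vehicle replicate 3, 2 and 3 without VPA replicates 1 and 2, and 3 without vehicle replicate 2). Of 15 retinoic acid pathway genes 6 rose and 3 fell: the synthesis enzymes RDH10, whose gene overlaps RPL7, and ALDH1A1 rose 2.76-fold and 5.61-fold, and the receptor gene RARA fell 1.96-fold. In the TGF-beta and BMP list 12 of 37 rose (32.4%) and 6 fell (16.2%, close to the 15.7% over the genes tested), with TGFB1 at 2.01-fold higher and TGFB2 at 2.19-fold lower (6 and 7 raised without VPA replicate 1 and vehicle replicate 2, 13 lowered without vehicle replicate 1 and 3 without VPA replicate 1). WNT pathway genes were called in both directions, 7 up (23.3%) and 5 down (16.7%, close to the 15.7% over the genes tested) of 30 (3 raised without vehicle replicate 2 or VPA replicate 2, 4 without VPA replicate 3, 8 lowered without vehicle replicate 1, and 3 lowered without vehicle replicate 2 or VPA replicate 1 or 2). WNT5A was 1.96-fold higher and FZD3, at 533 CPM in vehicle, was lowered to 341 CPM. Targets of YAP and TEAD split likewise: CYR61 rose 3.45-fold, AMOTL2 fell 2.76-fold and CTGF had 121 and 113 CPM, out of 5 raised and 6 lowered among 18 (1 to 3 raised without vehicle replicate 2 or any VPA library). In the sonic hedgehog list 3 of 16 rose (18.8%, close to the 16.4% over the genes tested) and 1 fell (1 raised without vehicle replicate 2 or VPA replicate 1 or 3). The receptor gene PTCH1 had 392 and 364 CPM.

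Genes of DNA replication rose by small amounts. Of 30 tested 17 were raised and none lowered, none of them by 2-fold, and the median log2 fold change was 0.47 (10 raised without VPA replicate 2). POLA1, the catalytic subunit of DNA polymerase alpha, had 40.1, 48.4 and 36.8 CPM in vehicle and 74.2, 79.9 and 70.2 CPM in VPA, and FEN1, the flap endonuclease, rose 1.9-fold. The helicase subunit gene MCM6 rose 1.39-fold. Mitosis genes gave 3 raised and none lowered of 30 at the same threshold (5 raised and 1 lowered without vehicle replicate 1), and MKI67 had 322, 418 and 283 CPM against 412, 431 and 445 CPM, with an adjusted p of 0.0764. Targets of p53 fell, 12 of 25 against 1 that rose, with a median log2 fold change of -0.52. CDKN1A, the cyclin-dependent kinase inhibitor, had 68.1, 53.9 and 59.3 CPM in vehicle and 37.0, 31.3 and 39.5 CPM in VPA. MDM2, the ubiquitin ligase of p53, fell 1.45-fold, GDF15 3.04-fold and SPATA18 3.02-fold, and SESN2 was the gene that rose.

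Cholesterol synthesis was the metabolic list with the clearest direction. Of 24 genes 13 fell and none rose at the threshold, and the median log2 fold change was -0.49, with 12 to 18 lowered when 1 library was left out. HMGCS1, the synthase at the head of the pathway, had 553, 662 and 801 CPM in vehicle and 341, 361 and 302 CPM in VPA. INSIG1, a sterol sensor, fell 2.32-fold. In fatty acid oxidation 8 of 23 rose and 3 fell (3 raised without VPA replicate 2, and 5 without VPA replicate 1 or 3 or vehicle replicate 2): PPARGC1A, a coactivator of mitochondrial genes, rose 4.96-fold from 2.03 CPM and PPARA 1.96-fold. Nuclear genes of oxidative phosphorylation gave 16 raised and 3 lowered of 66, with 5, 6 and 8 raised without VPA replicates 1, 2 and 3 and 6 without vehicle replicate 2. Of 13 mitochondrially encoded genes 2 rose, MT-ND1 by 1.55-fold (9 without vehicle replicate 3). In glycolysis the glucose transporter genes SLC2A3 and SLC2A1 fell 2.04-fold and 1.5-fold while ENO1 rose 1.36-fold. Of 24 genes 4 were raised (16.7%, close to the 16.4% over the genes tested) and 5 lowered (20.8%) (10 raised without vehicle replicate 1, 1 without VPA replicate 2 and none without vehicle replicate 2 or VPA replicate 1, and 3 lowered without VPA replicate 2 or 3). Of 29 genes of lysosomes and autophagy 9 rose and 2 fell, NPC1, a cholesterol exporter of lysosomes, among the latter: GRN, the progranulin gene, had 60.9, 54.1 and 52.9 CPM in vehicle and 122, 122 and 135 CPM in VPA, and TFEB, the master factor of lysosome genes, rose 3.43-fold.

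**Figure D4:**
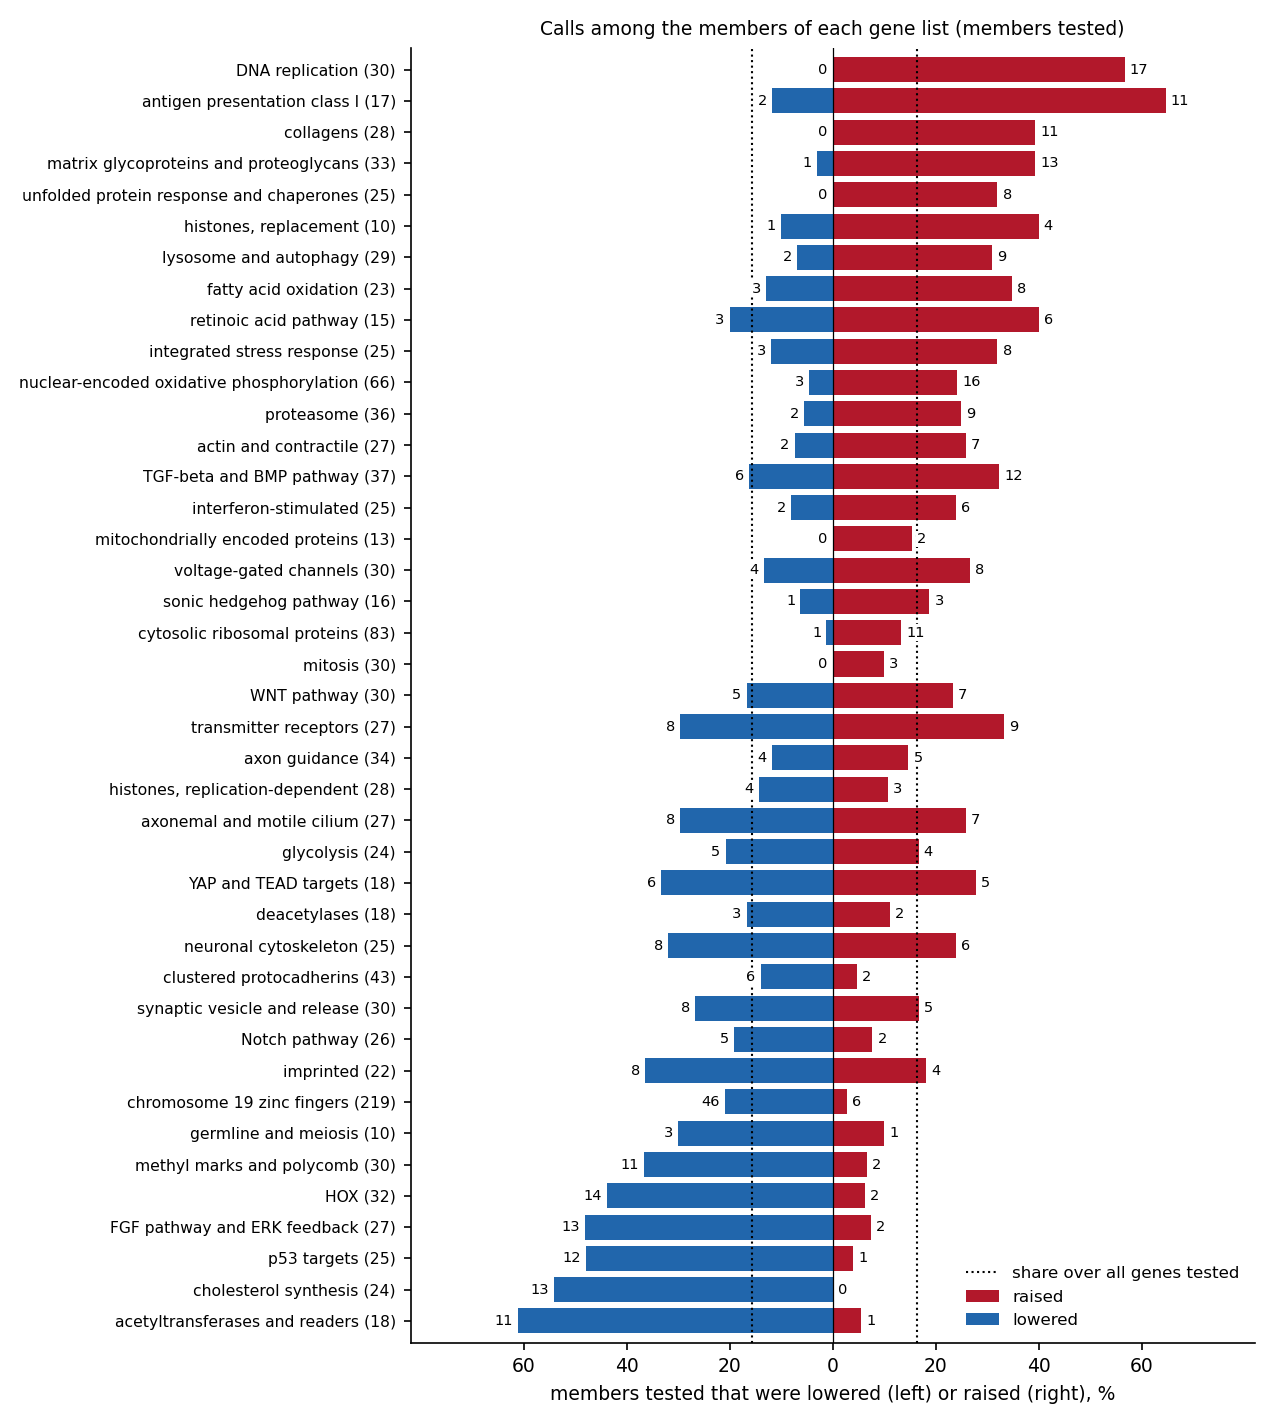
Percent of the members tested of each list that were lowered (blue, left) or raised (red, right), with the number of members at the bar ends, the number tested in parentheses and dotted lines at the shares over all genes tested (15.7% lowered, 16.4% raised). DNA replication (17 raised, 0 lowered) and MHC class I genes (11 and 2) lie at the top, and cholesterol synthesis (0 and 13) and acetyltransferases and readers (1 and 11) at the bottom.

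Some acetyltransferases, acetyl readers and genes of methyl marks were lowered, by less than 2-fold except for TET2. Of 18 acetyltransferases and acetyl readers 11 fell and 1 rose, and the median log2 fold change was -0.32 (7 lowered without VPA replicate 1, VPA replicate 2 or vehicle replicate 2). CREBBP, a histone acetyltransferase, had 181, 192 and 184 CPM in vehicle and 116, 129 and 135 CPM in VPA, KAT6B fell 1.83-fold and EP300 1.28-fold, while HAT1, which acetylates newly made histones, rose 1.55-fold. The list of 18 deacetylase genes holds the HDAC genes, which include those of the class I enzymes that VPA inhibits, and the sirtuin (SIRT) genes. Of the 18 genes 13 were not called, HDAC5, HDAC7 and HDAC6 fell (16.7%, close to the 15.7% over the genes tested) and HDAC1 and HDAC11 rose. HDAC1 had 143, 139 and 128 CPM in vehicle and 179, 173 and 161 CPM in VPA, and HDAC5 fell 1.7-fold. Without vehicle replicate 2, VPA replicate 1 or VPA replicate 3, neither rise passed the test. Of 30 genes of methyl marks and polycomb 11 fell and 2 rose, among them the 5-methylcytosine dioxygenase genes TET1 (1.84-fold) and TET2 (2.02-fold), the demethylase gene KDM6B (1.77-fold) and EZH1 (1.84-fold), while EZH2 had 181 and 158 CPM. In the table's own classes of transcription factors, 321 of 1245 tested were lowered (25.8%) and 143 raised (11.5%). Lowered shares were 24.6% in the zf-C2H2 class and 21.0% among zinc finger genes on chromosome 19. The longest group of protein-coding genes had 25.7% lowered and the most expressed group 24.9%. The part of length and level in the shares of these classes was not tested. The zf-C2H2 class, the largest, gave 135 lowered and 27 raised of 549, and 46 of 219 zinc finger genes on chromosome 19 were lowered against 6 raised (25 lowered without vehicle replicate 2 or VPA replicate 2, 30 and 27 without VPA replicates 1 and 3, and 12 raised without vehicle replicate 3 against 1 to 3 without vehicle replicate 2 or any VPA library), among them ZNF333 with a fall of 39.7 to 18.9 CPM. Homeobox genes gave 38 lowered (33.3%) and 23 raised (20.2%) of 114. ARID genes gave 8 lowered and none raised of 15, with ARID2, a subunit of a chromatin remodelling complex, at 1.82-fold lower. The bZIP class, which holds FOS and its partners, had more raised (13) than lowered (8) of 44. Among nuclear receptors the glucocorticoid receptor gene NR3C1 rose 2.98-fold, from 4.23, 5.18 and 6.77 CPM to 13.2, 18.7 and 16.3 CPM.

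Noncoding genes were called higher less often than the 16.4% over the genes tested. The lowered shares of antisense and lincRNA genes were close to the 15.7% over the genes tested, and that of sense intronic genes was above it. Protein-coding genes gave 2672 raised (18.9%) and 2224 lowered (15.7%) of 14173. Antisense genes gave 33 raised (3.58%) and 152 lowered (16.5%) of 923, lincRNA genes 63 (8.56%) and 124 (16.8%) of 736, and sense intronic genes 4 (3.48%) and 30 (26.1%) of 115. Transcribed unprocessed pseudogenes gave 16 raised and 61 lowered of 256. LincRNA genes held 0.543% to 0.565% of the counts in vehicle libraries and 0.434% to 0.464% in VPA libraries, and antisense genes 0.4% to 0.419% against 0.339% to 0.345%. Neither range overlapped between the groups, as for 47.5% of single genes tested. Shares of pseudogenes (0.892% to 0.951% in vehicle, 0.836% to 0.864% in VPA) did not overlap either. The same held for mitochondrially encoded genes (5.28% to 6.73% in vehicle, 6.78% to 7.2% in VPA). Sense intronic and antisense genes lie within or across coding genes, and the sources used here do not say whether reads were assigned by strand, so their reads and those of the host, which may include introns, cannot be told apart.

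**Figure D5:**
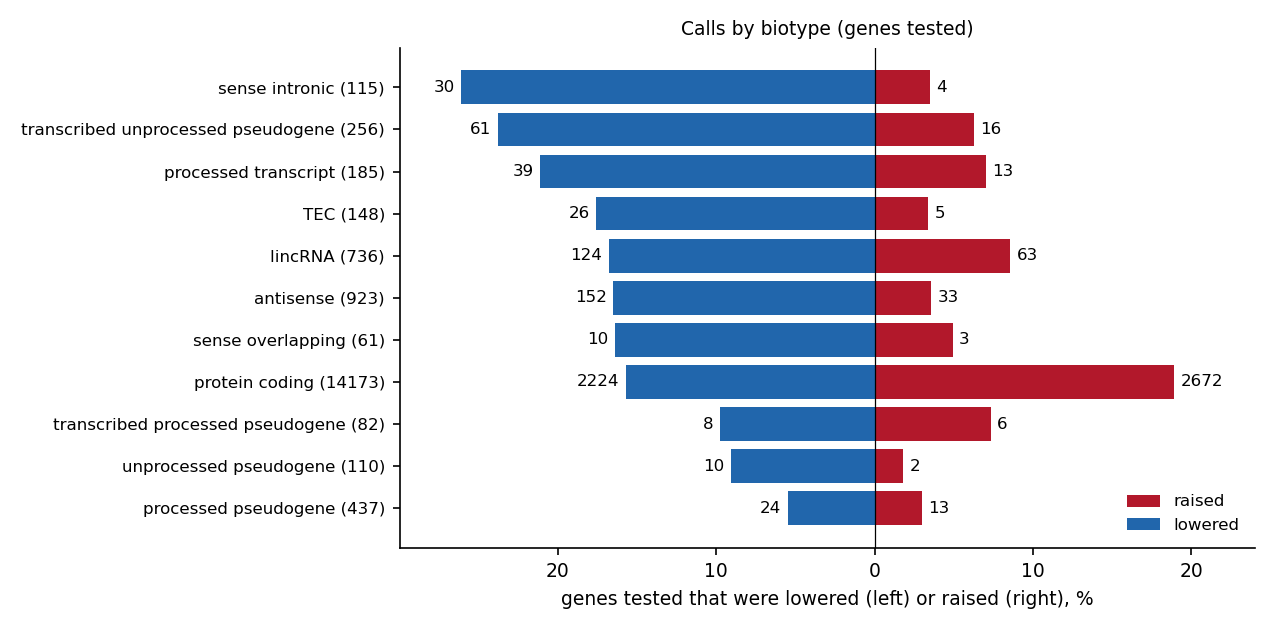
Percent of the genes tested of each biotype with at least 50 genes tested that were lowered (blue, left) or raised (red, right), with the number of genes at the bar ends. Protein-coding genes are the class with more raised than lowered genes (2672 and 2224), while antisense genes (33 and 152) and sense intronic genes (4 and 30) had fewer raised than lowered.

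Noncoding genes near the posterior end of the HOXA cluster fell with a coding neighbour. EVX1-AS (chromosome 7, 27241429 to 27247229, minus strand, GRCh38), which is antisense to EVX1 and overlaps it, had 11.2, 11.6 and 11.5 CPM in vehicle and 1.66, 0.671 and 1.35 CPM in VPA. AC004080.1, a lincRNA gene next to it (27239243 to 27241228, minus strand), had 15.3, 18.4 and 18.1 CPM against 2.07, 1.34 and 2.59 CPM. Their log2 fold changes were -3.21 ± 0.29 and -3.10 ± 0.24, beside -2.52 for EVX1 itself. LINC00599, from which a neuronal microRNA is made, fell from 90.5, 107 and 124 CPM to 28.0, 23.3 and 35.9 CPM, and PANTR1, next to a POU factor gene, fell 2.11-fold. GABPB1-AS1, antisense to GABPB1 and overlapping it, fell 2.63-fold with little spread, from 113, 112 and 104 CPM to 42.8, 41.5 and 41.0 CPM. LINC01018 and LINC02506 were among the few that rose, the first from 0.94, 1.38 and 1.06 CPM to 6.15, 6.04 and 5.69 CPM.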

How the data were processed

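Poly-T bead purified mRNA was sequenced from SCOs, and the authors deposited a table of counts per gene for vehicle and VPA, which are reads without normalization. The submitters' processing notes name HISAT2 2.0.5 and featureCounts 1.5.0-p3, and the use of strand is not given in the sources used here. The table lists genes with at least 2 reads over its 6 libraries, on GRCh38, with gene IDs of GENCODE 29. Its columns of the authors' normalized values, fold changes and p-values were not used.

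Tests were run with edgeR 4.0.16 under R 4.3.3, using filterByExpr by group, TMM scaling, and a two-sided quasi-likelihood F test without a block, with Benjamini-Hochberg adjustment over the 17360 genes tested and a threshold of 0.05. Levels are TMM-scaled CPM, errors of levels are SD (n = 3) and errors of log2 fold changes are SE. Floors cover counting error only. The test was tried first on simulated counts with 200 genes changed, drawn with the same dispersion in both groups, unlike these data. It found 72.2% of 2-fold and 88.3% of 4-fold changes, and 8.52% of its calls were false.

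Genes named are the 10 raised and 10 lowered coding genes with the smallest p and no overlap between groups, the 6 largest changes each way with at least 50 counts in the higher group, genes at 0 in one group, the 3 raised and 3 lowered with the smallest p of each list, transcription factor class and biotype, and the 2 most expressed of each list. Some further members were named after their values were seen. The comparison, the lists and the named genes were chosen with earlier results of these data known. A gene was called overlapping where the neighbour's mean count was above 10% of its own. Alternatives were DESeq2 1.42.0, other scalings, no and stricter filters, a replicate block, coding genes only, a 2-fold threshold and leaving out each library. Promoters came from RefSeq, the nearest to the annotated start for each symbol on the same strand, for 81.2% of coding genes tested. Values of some members counted in the lists are not reported here.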

Additional observations from a re-analysis of the deposited data

How the results depend on the processing

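No call turned direction in any alternative run. Raised and lowered genes numbered 2835 and 2723 with DESeq2, 2777 and 2767 with RLE size factors, 3076 and 2483 with upper-quartile factors, 3144 and 2434 with total counts, 3158 and 2943 without a filter on low counts and 2500 and 2578 with at least 10 counts in every library. With a threshold of 2-fold they numbered 1180 and 786. Leaving out 1 library at a time gave 1791 to 3480 raised and 1599 to 3230 lowered: the lowest values came without VPA replicate 2 (1791 and 1599), and without VPA replicate 1 (1902 and 1708), VPA replicate 3 (1831 and 1694) or vehicle replicate 2 (1968 and 1929) they were also below the full count, while without vehicle replicate 1 (3480 and 3230) or vehicle replicate 3 (3326 and 3150) they were above it. The cause was not tested. With the replicate number as a block, 2598 were raised and 2367 lowered, and lowered HOX genes went from 14 to 20, lowered acetyltransferases and readers from 11 to 7 and raised glycolysis genes from 4 to 7. The numbers were not taken to pair the samples: equal numbers share a prefix that the labels do not explain, and deviations from the group means correlated at 0.0544, 0.0364 and -0.0595 for numbers 1 to 3. Some calls of named genes with small changes or much spread did not pass in several of the runs that left out 1 library. EP300, TAPBP, SESN2, DDIT3, SOX9, NPC1 and TUBA1A were each lost in 3 such runs, and ERAP1 and ENO1 in 4. LIN28A, not called and at a log2 fold change of -0.01, had 0.50 without vehicle replicate 1 and -0.25 without vehicle replicate 3. The medians of 2 lists near 0, axon guidance and mitosis, changed sign with the scaling. The planned comparison of promoter elements between raised and other genes was void, because 79.3% of raised genes had a matched promoter.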

Other observations

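Further lists moved with no common direction or with few members. Among 27 genes of motile cilia 7 rose, with SPAG6, CFAP44 (6.21 to 14.6 CPM, overlapping BOC) and DNAH7 (2.9 to 7.87 CPM) in the lead, and 8 fell, with TEKT2 (15.6 to 7.55 CPM) and RFX3 (169 to 99.4 CPM) among them, while FOXJ1, the master factor of motile cilia, had 8.03 and 8.99 CPM. Of 22 imprinted genes 8 fell and 4 rose (4 lowered without any 1 of the VPA libraries and 5 without vehicle replicate 2). MEST, which overlaps COPG2, had 612, 648 and 614 CPM in vehicle and 265, 246 and 249 CPM in VPA, CDKN1C fell 1.63-fold, and IGF2 went from 0.249 to 1.35 CPM. Of 10 genes of germline and meiosis tested out of 32 listed, TEX15 rose from 6.35, 9.97 and 6.77 CPM to 29.6, 29.3 and 27.3 CPM and 3 fell.

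Histone genes made from replication-independent copies rose in 4 of 10 and fell in 1: H1F0, a linker histone of cells that slow their division, had 680, 491 and 525 CPM in vehicle and 928, 926 and 924 CPM in VPA. Of the replication-dependent histone genes, whose mRNA mostly lacks a poly-A tail and is caught poorly on poly-T beads, 28 of 54 were tested. Of these 3 were raised (10.7%) and 4 lowered (14.3%), both below the shares over the genes tested, and the median log2 fold change was 0.04. Without 1 library 0 to 3 were raised and 1 to 5 lowered. HIST2H2BE, a lowered member, fell 3.18-fold. Among 43 clustered protocadherins 6 fell and 2 rose (10 lowered without vehicle replicate 1, 2 without vehicle replicate 2 and 3 without VPA replicate 2 or 3). Genes of the unfolded protein response and chaperones gave 8 raised and none lowered of 25 (2, 3 and 5 raised without VPA replicates 2, 3 and 1, 3 without vehicle replicate 2, and 3 lowered without vehicle replicate 1), with SDF2L1 rising from 7.03 to 18.6 CPM, and the integrated stress response gave 8 raised and 3 lowered of 25 (5 raised without vehicle replicate 2, VPA replicate 1 or VPA replicate 3), with TRIB3 going from 7.49 to 21.1 CPM and DDIT3 from 5.38 to 2.53 CPM. Cytosolic ribosomal protein genes gave 11 raised and 1 lowered of 83, with 36 raised without vehicle replicate 1, 1 without vehicle replicate 2 or VPA replicate 1, 2 without VPA replicate 2 and 5 without VPA replicate 3. Proteasome genes gave 9 raised and 2 lowered of 36, with 16 raised without vehicle replicate 1, 5 without vehicle replicate 2 and 3 or 4 without any 1 of the VPA libraries. Of 4 metallothionein genes tested MT2A rose from 9.58 to 19.9 CPM and MT1X fell from 5.02 to 2.4 CPM.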
